A study of Mus musculus with 8 samples.

Results

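Iron handling genes are the genes whose products bring iron into a cell, store it, release it again and set how much of each of these is done. Here they were 8 genes chosen by name from the 23358 genes of an RNA-seq table of mouse incisor tissue: *Tfrc* and *Slc11a2* for uptake, *Fth1* for storage, *Slc40a1* and *Heph* for export, and *Nfe2l2*, *Ireb2* and *Aco1* for regulation. All 8 passed the filter on low values, which 14148 genes of the table passed. A gene counted as a member when its name was one of these 8.

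Transferrin carries iron in the blood, and the transferrin receptor takes it into the cell, where ferritin, built of heavy (*Fth1*) and light (*Ftl1*) chains, stores it in a form that does no harm. In rodents the enamel of the incisor is stained orange by iron: ameloblasts, the enamel-forming epithelial cells, collect iron in ferritin during the maturation of enamel and hand it over to the enamel surface. Mice without *Nfe2l2*, a transcription factor of the oxidative stress response, have pale incisors.

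The tissue came from the cervical loop of the incisor of C57BL/6 mice at 4 weeks of age, dissected into a head (CLH), which holds the epithelial stem cells, and a tail (CLT), which holds their progenies. In the conditional knockout (cKO), Cre under the promoter of *Krt14*, a keratin of basal epithelial cells, deletes the floxed exons 8 to 10 of *Med1*, a subunit of the Mediator complex of transcription, so that other cell types of the tissue keep the gene. The controls (Ctrl) were Cre-negative littermates, and male and female mice were not separated. Each of the 4 groups, Ctrl CLH, cKO CLH, Ctrl CLT and cKO CLT, had 2 libraries, described as biological duplicates, from mice of 2 litters whose cervical loop tissues were pooled. Values are RPKM, reads scaled to gene length and to the size of the library, and they rest on 22330512 to 28651106 reads on genes per library.

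*Med1* itself was read first, as a check of the labels. Its RPKM was 7.71 and 9.12 (Ctrl) and 7.10 and 7.03 (cKO) in CLH, and 4.83 and 8.71 (Ctrl) and 9.15 and 8.96 (cKO) in CLT. Both cKO libraries lay below both Ctrl libraries in CLH and above both in CLT. By limma, the log2 fold change of *Med1* was -0.22 (SE 0.11, adjusted p = 0.71) in CLH and 0.42 (SE 0.30, adjusted p = 0.36) in CLT, where it was 0.05 (adjusted p = 0.71) without Ctrl CLT 1 and 0.79 (adjusted p = 0.0039) without Ctrl CLT 2. The deleted exons hold 239 of the 7589 bases over which *Med1* was counted, or 3.15%, so their loss alone would change a value of the whole gene little. Whether the deletion alters the level of the remaining transcript was not tested. No lower *Med1* level marks the CLT libraries labelled cKO, so the check did not bear out these labels. Directions given for cKO are those of the libraries labelled cKO.

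The libraries were also set against markers of the cell types that the tissue could hold, because the label of every library is dental epithelial cells. *Amelx*, the main enamel matrix protein and the most abundant of 4 secretory ameloblast markers, had an RPKM of 10170 and 9794 (Ctrl) and 9733 and 11040 (cKO) in CLH, but 48800 and 18600 (Ctrl) and 6.57 and 3.68 (cKO) in CLT. Maturation ameloblast markers, among which *Amtn* was the most abundant, summed to 5633 and 7379 RPKM (Ctrl) and 238 and 245 (cKO) in CLT. Of these 238 and 245 RPKM, the carbonic anhydrase gene *Car6* made up 224 and 229, while *Amtn* was at 6.88 and 8.72, *Klk4* at 0.23 and 0.12, and *Wdr72* at 0 reads in both libraries. *Slc24a4*, an ion exchanger of the same list, was at 4.092 and 4.995 RPKM in cKO CLT. No secretory ameloblast marker was above 6.57 RPKM in cKO CLT, and the sum of the maturation list was low and mostly *Car6*.

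Markers of cells that do not come from the dental epithelium differed as well. *Dspp*, the dentin gene of odontoblasts, was at 545 and 423 RPKM (Ctrl) and 654 and 538 (cKO) in CLH, and 543 and 644 (Ctrl) and 0.14 and 0.17 (cKO) in CLT. *Bglap* was at 490 and 397 in Ctrl CLT against 0.69 and 0.41 in cKO CLT, and *Ibsp* at 22.4 and 75.6 against 0 reads in both libraries, while the collagen gene *Col1a1*, the most abundant of the 7 odontoblast and bone markers over all libraries, was still at 376 and 472 in cKO CLT. *Col1a2*, which other connective tissue cells also express, was at 674 and 831 (Ctrl) and 638 and 700 (cKO) in CLT and made up most of what was left of the list in cKO CLT. The 7 markers together summed to 2842 and 3364 RPKM (Ctrl) and 1016 and 1172 (cKO) in CLT. *Krt14* and *Krt5*, the most abundant of 8 dental epithelium markers, were present in all 8 libraries. Those 8 markers summed to 1344 and 873 RPKM (Ctrl) and 1731 and 1962 (cKO) in CLT.

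Hair, muscle and pigment cell markers showed the opposite order, and they set the 2 Ctrl CLT libraries apart. *Krt71*, a keratin of the hair follicle and the most abundant of 8 epidermis and hair markers, was at 0.33 to 0.57 RPKM in the 4 CLH libraries, at 1229 in Ctrl CLT 1, 1.30 in Ctrl CLT 2, and as much as 3726 and 4189 with cKO. The 8 skeletal muscle markers, led by *Acta1*, summed to 673 RPKM in Ctrl CLT 1, 58.8 in Ctrl CLT 2, and as much as 1832 and 2012 with cKO. The 6 melanocyte markers, led by *Dct*, summed to 134 in Ctrl CLT 1, 10.3 in Ctrl CLT 2, and as much as 414.4 and 414.5 with cKO. All 8 hair, all 8 muscle and all 6 melanocyte markers were higher in Ctrl CLT 1 than in Ctrl CLT 2 and higher again in both cKO CLT libraries. Ctrl CLT 1 therefore carried, at a lower level, RNA of the same kinds that marked cKO CLT, and it also held more *Amelx* than Ctrl CLT 2.

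**Figure D1:**
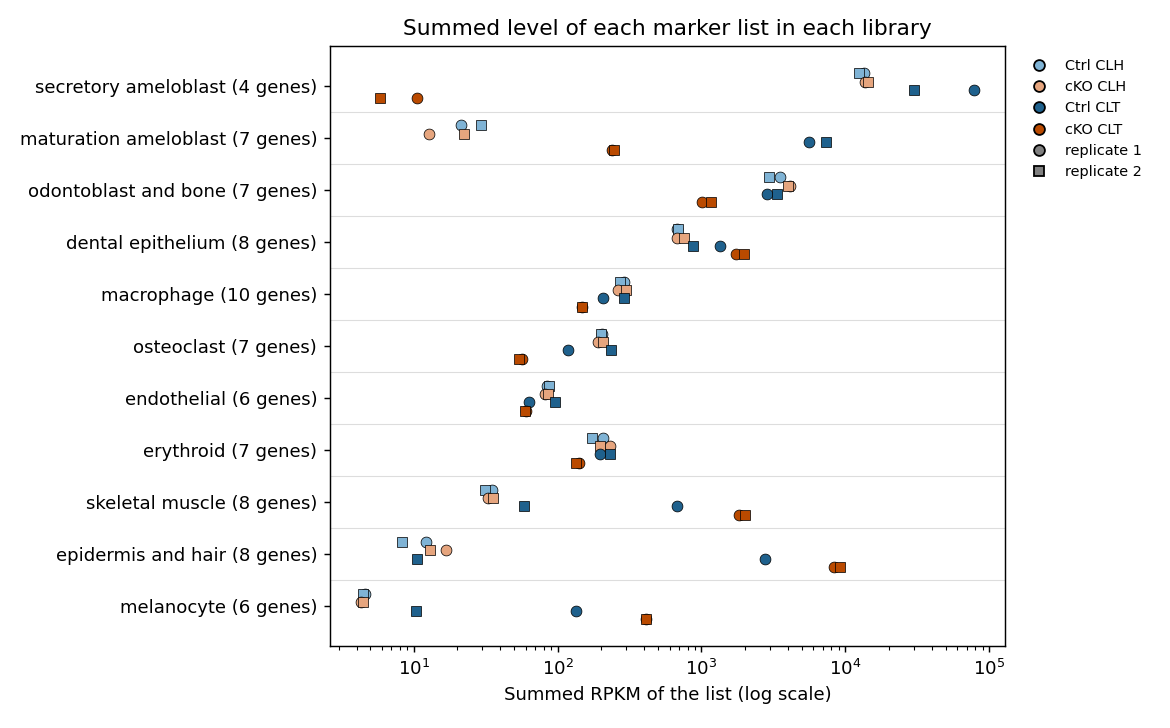
Summed RPKM (log axis) of 11 marker lists in each of the 8 libraries, with circles for replicate 1 and squares for replicate 2. Secretory ameloblast markers lay at 10.6 and 5.83 in cKO CLT, and the muscle, hair and melanocyte lists lay lowest in CLH and Ctrl CLT 2, higher in Ctrl CLT 1 and highest in cKO CLT.

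Replicates of Ctrl CLT were the least alike: their median absolute log2 difference over all genes tested was 0.404, while it was 0.105 for cKO CLT and 0.0922 (Ctrl) and 0.113 (cKO) for CLH. Results of the 8 iron handling genes between cKO and Ctrl in CLT are therefore given with both libraries and without each of them. Whether the CLT dissections of Ctrl and cKO covered the same tissue was not tested, and the muscle, hair, dentin and bone markers differed between them. In bulk tissue, fewer cells of a type and less RNA per cell cannot be told apart, and this holds for every value that follows.

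Differences were tested with limma on log2(RPKM + 1), which understates the change of genes with low values, and adjusted by Benjamini-Hochberg over all 14148 genes with a threshold of 0.05. The first question was what differed between cKO and Ctrl in CLT. There, 0.0777% of all genes rose and 1.68% fell, and in 72.2% the groups did not overlap. None of the 8 iron handling genes passed (at an unadjusted p under 0.05, 5116 of all genes did, *Fth1*, *Slc40a1*, *Nfe2l2* and *Aco1* among them, and by voom on recovered reads 0 genes passed), and in 5 of the 8 the groups did not overlap. With all 8 libraries in 1 fit, *Fth1*, *Slc40a1*, *Nfe2l2* and *Aco1* passed (adjusted p = 0.002 to 0.0072, limma). With the replicate number as a block, *Fth1* and *Slc40a1* did (adjusted p = 0.024 each, limma). With quantile normalization *Fth1* did (adjusted p = 0.049, limma). These values lie within the ranges given for each gene below. A 5 of 8 share is not above that of all genes. A replicate pair as far apart as Ctrl CLT sets a wide spread for this test, and without Ctrl CLT 1 or without Ctrl CLT 2 the test called 9838 and 7369 genes, against 248 with both and 11 without either cKO CLT library. In these fits the group left with a single library is assumed to vary like the others. That does not hold for Ctrl CLT, whose replicates differed by a median of 0.404 on the log2 scale, against 0.0922 to 0.113 in the other groups. Adjusted p-values and calls without Ctrl CLT 1 or without Ctrl CLT 2, here and below, therefore understate the spread. They are given for description, and only the effect sizes of these fits can be read.

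In CLH the same question gave 0 genes past the threshold, so 0% of all genes rose and 0% fell by limma, with 1027 genes at an unadjusted p under 0.05, 0 genes by voom on recovered reads and 4 with robust eBayes. The groups did not overlap in 4 of the 8 iron handling genes, against 38.7% of all genes. The test of whether the cKO effect differed between CLT and CLH, an interaction over all 8 libraries, called 17.6% of all genes, and 4 of the 8: *Fth1*, *Slc40a1*, *Nfe2l2* and *Aco1*. Of these, *Aco1* did not pass with the replicate number as a block.

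**Figure D2:**
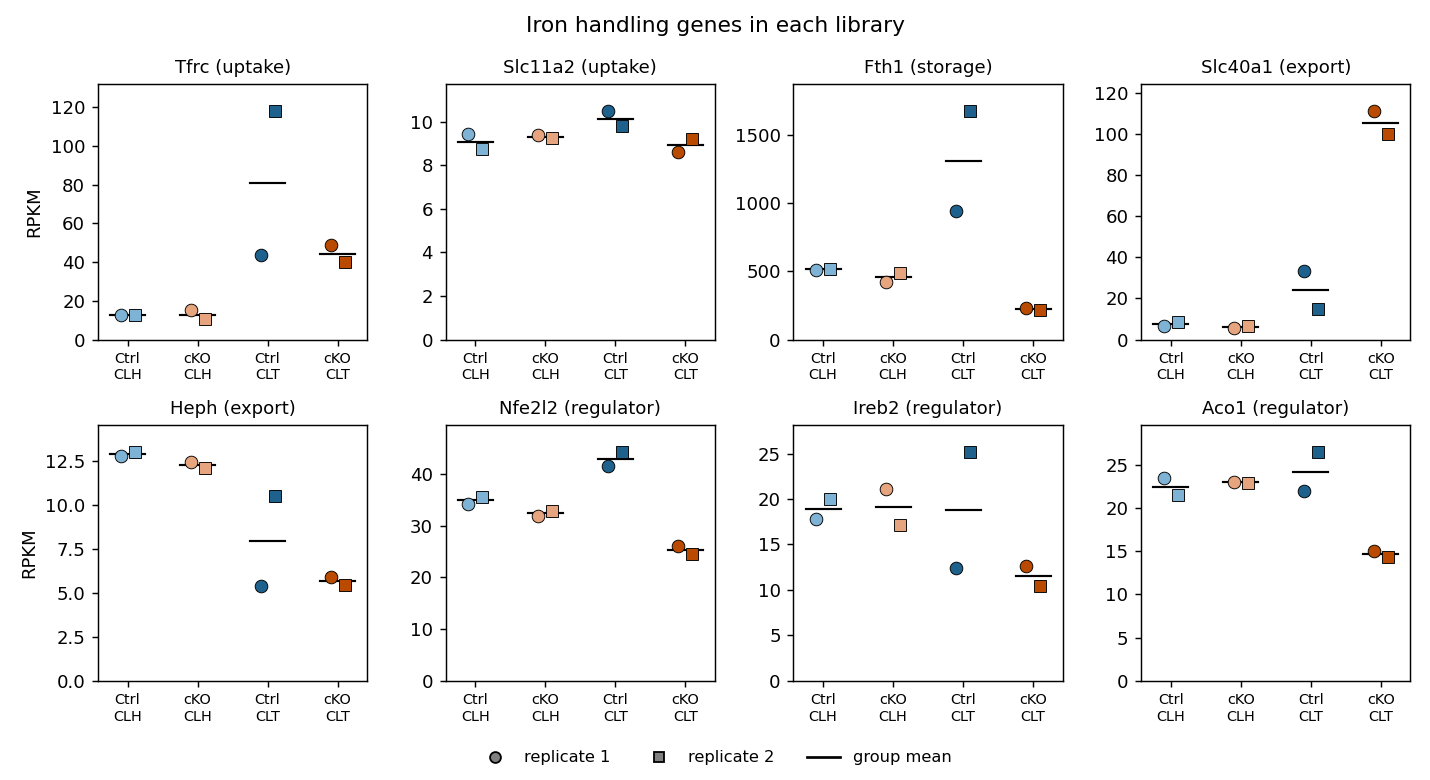
RPKM (linear axis from 0) of the 8 iron handling genes in each library, with circles for replicate 1, squares for replicate 2 and a line at the group mean. *Fth1* lay at 947 and 1677 (Ctrl) and 233 and 220 (cKO) in CLT, and *Slc40a1* lay at 33.5 and 15.1 (Ctrl) and 111 and 100 (cKO) in CLT.

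Uptake begins with *Tfrc* (chromosome 16, 32608896 to 32632794, mm10), the receptor that binds transferrin and brings it into the cell. *Tfrc* RPKM was 12.8 and 12.9 (Ctrl) and 15.1 and 10.7 (cKO) in CLH, and 43.4 and 118 (Ctrl) and 48.6 and 40.15 (cKO) in CLT. All 4 CLT libraries thus lay above all 4 CLH libraries, and within CLT a single library, Ctrl CLT 2, stood far above the other 3. The log2 fold change of *Tfrc* between cKO and Ctrl in CLT was -0.69 (SE 0.53, 95% CI -2.13 to 0.76, adjusted p = 0.38, limma). It was -1.40 (adjusted p = 0.00058, limma) without Ctrl CLT 1 and 0.02 (adjusted p = 0.9, limma) without Ctrl CLT 2, so a single library decided both its size and its sign, and over all 15 alternatives the adjusted p of *Tfrc* by limma ran from 0.00058 to 0.9. In CLH the groups overlapped, with a value of -0.02 on the log2 scale (SE 0.17, adjusted p = 0.99, limma), and the CLH value was 0.22 without cKO CLH 2. The interaction of *Tfrc*, -0.67 (SE 0.62, adjusted p = 0.46, limma), was -1.38 (adjusted p = 0.0012) without Ctrl CLT 1 and 0.04 (adjusted p = 0.9) without Ctrl CLT 2 by limma, the lowest and highest adjusted p of its 18 alternatives.

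The other importer, *Slc11a2* (chromosome 15, 100387900 to 100423055), is the divalent metal transporter that moves iron across membranes, out of endosomes among others. Its RPKM was 9.41 and 8.74 (Ctrl) and 9.38 and 9.22 (cKO) in CLH, and 10.5 and 9.79 (Ctrl) and 8.61 and 9.20 (cKO) in CLT. The 8 libraries stayed between 8.61 and 10.5, the narrowest range of the 8 genes. By limma, the log2 fold change was -0.17 (SE 0.15, 95% CI -0.59 to 0.25, adjusted p = 0.46) in CLT, -0.12 and -0.21 there without Ctrl CLT 1 and without Ctrl CLT 2, and 0.03 (SE 0.08, 95% CI -0.18 to 0.25, adjusted p = 0.93) in CLH. These intervals leave room for changes of up to 0.59 in CLT and 0.25 in CLH on the log2 scale.

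Storage is represented by *Fth1* (chromosome 19, 9982703 to 9985092), the ferritin chain that oxidizes iron as it enters the shell. *Fth1* had the highest RPKM of the 8 genes in every library: 513.5 and 520.5 (Ctrl) and 422 and 491 (cKO) in CLH, and 947 and 1677 (Ctrl) and 233 and 220 (cKO) in CLT. The order of the groups was Ctrl CLT, Ctrl CLH, cKO CLH and cKO CLT, with no overlap between any neighbours in it. The group mean in cKO CLT, 226.5 (SD 9.77, n = 2), was 5.79-fold under that of Ctrl CLT, 1312 (SD 517, n = 2).

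In CLT the log2 fold change of *Fth1* was -2.47 (SE 0.33, adjusted p = 0.06, limma), which did not pass the threshold although both cKO libraries lay under both Ctrl libraries. It was -2.88 (adjusted p = 2.2e-05, limma) without Ctrl CLT 1 and -2.06 (adjusted p = 0.00026, limma) without Ctrl CLT 2, within a range of 2.2e-05 to 0.43 over 15 alternatives of this *Fth1* result, of which 5 passed. In CLH the log2 fold change of *Fth1* was -0.18 (SE 0.11, adjusted p = 0.72, limma). The interaction was -2.29 (SE 0.36, adjusted p = 0.015, limma), so the *Fth1* effect of cKO differed between CLT and CLH. It did not pass without Ctrl CLH 1, Ctrl CLH 2, cKO CLH 1, cKO CLH 2, cKO CLT 1 or cKO CLT 2, where *Fth1* was at -2.28, -2.30, -2.40, -2.18, -2.33 and -2.24 in this order (adjusted p = 0.068 to 0.087, limma). Without Ctrl CLT 1 the *Fth1* interaction was -2.70 and without Ctrl CLT 2 it was -1.88, and over all 18 alternatives the adjusted p ran from 1.5e-06 to 0.087.

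The light chain gene *Ftl1* (chromosome 7), outside the 8 but part of the same ferritin shell, had an RPKM of 616 and 593 (Ctrl) and 632 and 754 (cKO) in CLH, and 987 and 1843 (Ctrl) and 254 and 305 (cKO) in CLT. *Ftl1* shared with *Fth1* the highest level in Ctrl CLT 2, the lowest in cKO CLT and an intermediate level in CLH. Its log2 fold change in CLT was -2.27 (SE 0.37, adjusted p = 0.064, limma), past the threshold at -2.72 without Ctrl CLT 1 and -1.82 without Ctrl CLT 2, and the interaction of *Ftl1* was -2.46 (SE 0.41, adjusted p = 0.017, limma). Among the other storage genes, *Ncoa4*, the receptor that sends ferritin to the lysosome, was at 43.0 and 69.6 (Ctrl) and 29.7 and 26.7 (cKO) in CLT, and the iron chaperones *Pcbp1* and *Pcbp2* were slightly higher in both cKO CLT libraries than in both Ctrl CLT libraries. Mitochondrial ferritin, *Ftmt*, had 0 reads in all 8 libraries, which allows up to 3 reads in each. Macrophages also hold much ferritin, and 9 of their 10 markers had lower values in cKO CLT as well: the 10 macrophage markers, led by *Lyz2*, summed to 208 and 292 RPKM (Ctrl) and 148 and 147 (cKO) in CLT, with none at 0. *Cd163* was the exception, at 1.83 and 0.80 (Ctrl) and 4.96 and 4.90 (cKO) in CLT. The 7 osteoclast markers, led by *Ctsk*, summed to 118 and 235 (Ctrl) and 56.3 and 54.1 (cKO) in CLT. The part of these cells, and of the ameloblasts whose markers were low in cKO CLT, in the ferritin values was not tested.

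Export depends on *Slc40a1* (chromosome 1, 45908070 to 45925594), which encodes ferroportin, the exporter of iron. *Slc40a1* RPKM was 6.59 and 8.34 (Ctrl) and 5.64 and 6.40 (cKO) in CLH, and 33.5 and 15.1 (Ctrl) and 111 and 100 (cKO) in CLT. It was thus lowest in CLH, where cKO and Ctrl lay close together, and highest in cKO CLT, with Ctrl CLT 1 above Ctrl CLT 2. The mean of cKO CLT was 4.35-fold that of Ctrl CLT, with a value of 2.18 on the log2 scale (SE 0.41, adjusted p = 0.07, limma) that did not pass. For *Slc40a1* it was 2.73 (adjusted p = 2.8e-05, limma) without Ctrl CLT 1 and 1.63 (adjusted p = 0.00043, limma) without Ctrl CLT 2, within a range of 2.8e-05 to 0.46 over 15 alternatives.

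In CLH both cKO libraries lay under both Ctrl libraries for *Slc40a1*, with a value of -0.27 on the log2 scale (SE 0.14, adjusted p = 0.71, limma). The interaction of *Slc40a1* was 2.44 (SE 0.48, adjusted p = 0.025, limma), the only member with a cKO effect that was higher in CLT than in CLH by this test. Left without the same 6 libraries in turn (Ctrl CLH 1, Ctrl CLH 2, cKO CLH 1, cKO CLH 2, cKO CLT 1, cKO CLT 2), *Slc40a1* was at 2.59, 2.29, 2.37, 2.52, 2.37 and 2.52 and did not pass (adjusted p = 0.091 to 0.11, limma), while it passed at 2.99 without Ctrl CLT 1 and 1.89 without Ctrl CLT 2, within 2.8e-06 to 0.11 over 18 alternatives. *Slc40a1* was higher in Ctrl CLT 1 than in Ctrl CLT 2 and higher again in both cKO CLT libraries. The same held for all 8 hair, all 8 muscle and all 6 melanocyte markers, and for 26.7% of all genes tested. Whether cells of these kinds carry the *Slc40a1* RNA was not tested.

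Exported iron is oxidized before transferrin binds it, a step done by *Heph* (chromosome X, 96455436 to 96574484), which encodes the ferroxidase hephaestin. *Heph* RPKM was 12.8 and 13.0 (Ctrl) and 12.4 and 12.1 (cKO) in CLH, and 5.40 and 10.5 (Ctrl) and 5.90 and 5.42 (cKO) in CLT. All CLT libraries lay under all CLH libraries, and Ctrl CLT 1 lay with the cKO CLT libraries rather than with Ctrl CLT 2. The log2 fold change of *Heph* in CLT was -0.37 (SE 0.34, adjusted p = 0.46, limma). It was -0.79 (adjusted p = 0.0027, limma) without Ctrl CLT 1 and 0.06 (adjusted p = 0.73, limma) without Ctrl CLT 2, with a range of 0.0027 to 0.86 over 15 alternatives, so that, as for *Tfrc*, the sign depended on which control library was kept. In CLH both cKO libraries lay just under both Ctrl libraries, with -0.07 (SE 0.07, adjusted p = 0.8, limma). For the interaction, *Heph* gave -0.30 (SE 0.37, adjusted p = 0.58, limma), and -0.72 (adjusted p = 0.0014, limma) without Ctrl CLT 1 but 0.12 (adjusted p = 0.46, limma) without Ctrl CLT 2, within 0.0014 to 0.75 over 18 alternatives.

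The related ferroxidase gene *Hephl1* (chromosome 9), whose loss changes the hair of mice, showed a different distribution from *Heph*. *Hephl1* RPKM was 0.01 to 0.05 in the 4 CLH libraries, resting on 2 to 9 reads, then 12.2 in Ctrl CLT 1, 0.02 in Ctrl CLT 2 from 3 reads, and 49.7 and 48.1 in cKO CLT. *Hephl1* was thus higher in Ctrl CLT 1 than in Ctrl CLT 2 and higher again in both cKO CLT libraries. All 8 hair, all 8 muscle and all 6 melanocyte markers had this order, as did 26.7% of all genes tested. Which cells carry the *Hephl1* RNA was not tested. The log2 fold change of *Hephl1* in CLT was 3.76 (SE 1.31, adjusted p = 0.13, limma), which became 5.61 when Ctrl CLT 1 was left out and 1.92 when Ctrl CLT 2 was. The plasma ferroxidase *Cp* was low throughout, at 1.63 to 5.8 RPKM.

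Among the regulators, *Nfe2l2* (chromosome 2, 75675519 to 75704641) encodes NRF2, which drives ferritin and detoxification genes under oxidative stress. *Nfe2l2* RPKM was 34.3 and 35.5 (Ctrl) and 32.0 and 32.8 (cKO) in CLH, and 41.5 and 44.2 (Ctrl) and 26.1 and 24.6 (cKO) in CLT. The 4 groups did not overlap and took the same order as for *Fth1*. The 2 Ctrl CLT libraries lay close together, unlike for *Fth1*, and the log2 fold change in CLT was -0.73 (SE 0.14, adjusted p = 0.069, limma). For *Nfe2l2* it was -0.78 (adjusted p = 0.0017, limma) without Ctrl CLT 1 and -0.69 (adjusted p = 0.004, limma) without Ctrl CLT 2, within a range of 0.0017 to 0.5 over 15 alternatives. In CLH it was -0.10 (SE 0.06, adjusted p = 0.71, limma), and the interaction was -0.63 (SE 0.12, adjusted p = 0.023, limma). That call was lost without Ctrl CLH 1, Ctrl CLH 2, cKO CLH 1, cKO CLH 2, cKO CLT 1 or cKO CLT 2, at -0.61, -0.66, -0.65, -0.61, -0.67 and -0.59 for *Nfe2l2* (adjusted p = 0.098 to 0.12, limma), and kept at -0.68 and -0.59 without Ctrl CLT 1 and Ctrl CLT 2, within 0.00096 to 0.12 over 18 alternatives.

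The iron regulatory proteins, encoded by *Ireb2* and *Aco1*, bind RNA hairpins when iron is scarce, holding back the translation of ferritin and protecting the *Tfrc* RNA, and the *Aco1* protein becomes a cytosolic aconitase when iron is at hand. *Aco1* (chromosome 4, 40143265 to 40199009) had an RPKM of 23.4 and 21.5 (Ctrl) and 23.0 and 23.0 (cKO) in CLH, and 22.0 and 26.5 (Ctrl) and 15.1 and 14.4 (cKO) in CLT. Only the cKO CLT libraries lay under 21.5, and the highest value was 26.5 in Ctrl CLT 2. The log2 fold change of *Aco1* in CLT was -0.68 (SE 0.16, adjusted p = 0.086, limma), with -0.81 (adjusted p = 0.0016, limma) without Ctrl CLT 1, -0.55 (adjusted p = 0.0099, limma) without Ctrl CLT 2, and a range of 0.0016 to 0.55 over 15 alternatives. In CLH it was 0.03 (SE 0.07, adjusted p = 0.91, limma), and without Ctrl CLH 2 it was -0.03. The interaction of *Aco1* was -0.71 (SE 0.16, adjusted p = 0.036, limma), and not past the threshold without Ctrl CLH 1, Ctrl CLH 2, cKO CLH 1, cKO CLH 2, cKO CLT 1 or cKO CLT 2, where *Aco1* was at -0.77, -0.65, -0.71, -0.71, -0.74 and -0.68 (adjusted p = 0.11 to 0.15, limma). It passed at -0.84 without Ctrl CLT 1 and -0.58 without Ctrl CLT 2, and in 11 of 18 alternatives of this *Aco1* result in all, within 0.00044 to 0.15.

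*Ireb2* (chromosome 9, 54863755 to 54912534) had an RPKM of 17.8 and 20.0 (Ctrl) and 21.2 and 17.1 (cKO) in CLH, and 12.4 and 25.1 (Ctrl) and 12.6 and 10.5 (cKO) in CLT. The groups overlapped in both regions, and Ctrl CLT 1 again lay with cKO CLT. Its log2 fold change in CLT was -0.58 (SE 0.38, adjusted p = 0.31, limma), with -1.06 (adjusted p = 0.0016, limma) without Ctrl CLT 1 and -0.10 (adjusted p = 0.57, limma) without Ctrl CLT 2, within 0.0016 to 0.77 over 15 alternatives of this *Ireb2* result. In CLH the *Ireb2* value was 0.01 (SE 0.12, adjusted p = 0.99, limma), and its sign changed in 4 of 15 alternatives. By limma, the *Ireb2* interaction of -0.59 (SE 0.43, adjusted p = 0.35) became -1.07 (adjusted p = 0.0017) without Ctrl CLT 1 and -0.12 (adjusted p = 0.66) without Ctrl CLT 2, within 0.0017 to 0.66 over 18 alternatives.

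The RNA hairpins that both iron regulatory proteins bind, the iron-responsive elements, tie several of the 8 genes together at the level of sequence. They were searched in the protein-coding transcripts of GENCODE M21 (build GRCm38, the same assembly as mm10) as a C, 5 bases, a loop of CAGTG and 1 more base, and 5 bases that pair with the 5 before the loop, G with T allowed, on the transcript strand. Such an element lies in the 5 prime UTR of 0.142% and in the 3 prime UTR of 0.591% of 21842 protein-coding genes. Of the 8, *Fth1* and *Slc40a1* hold 1 each in the 5 prime UTR, as does *Ftl1*, and *Tfrc* holds 4 in the 3 prime UTR. These elements are shown because they sit at opposite ends of the genes for storage and export and of the gene for uptake, with the 6 bases of the loop in capitals.
*Fth1*, chr19:9982732-9982760, + strand: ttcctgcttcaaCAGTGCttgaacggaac
*Ftl1*, chr7:45459779-45459807, - strand: gtcttgcttcaaCAGTGTttgaacggaac
*Slc40a1*, chr1:45925465-45925493, - strand: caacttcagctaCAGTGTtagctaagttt
*Tfrc*, chr16:32631219-32631247, + strand: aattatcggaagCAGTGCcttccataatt
*Tfrc*, chr16:32631598-32631626, + strand: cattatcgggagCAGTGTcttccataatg
*Tfrc*, chr16:32631663-32631691, + strand: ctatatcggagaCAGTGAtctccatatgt
*Tfrc*, chr16:32631710-32631738, + strand: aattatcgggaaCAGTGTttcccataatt
The genes with an element did not share a direction in these RNA data: *Fth1* and *Ftl1* had their lowest levels in cKO CLT, *Slc40a1* its highest, and *Tfrc* overlapped between the groups. A match of letters is a description of the transcript and not a measurement of binding.

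The motif of NRF2, TGAC and GC with 3 bases between them on either strand, was looked for in the 250 bases before the gene start in RefSeq promoters (GRCm38.p6). Promoters were matched for 5 of the 8 genes (*Aco1*, *Fth1*, *Ireb2*, *Nfe2l2* and *Tfrc*), some with more than 1 promoter. Of their 7 promoters, 1 held the motif (14.3%), that of *Nfe2l2*, against 10.2% of all 32851 promoters. Of the 12 genes in a list of *Nfe2l2* targets, 10 were matched. Counted by gene, with any promoter sufficient, 3 held it: *G6pdx*, *Gclm* and *Txnrd1*, the last not in all of its promoters. A site outside these 250 bases would be missed, so a gene without a match may still hold one elsewhere.

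Regions were compared within each genotype to see how the RNA levels of the 8 genes differ between CLH and CLT. Both are mixed tissues, so a difference between them cannot be read as one between stem cells and their progenies. In Ctrl, limma called 0.00707% of all genes as higher in CLT and 0% as lower, with 1860 at an unadjusted p under 0.05 and 0 by voom on recovered reads. None of the 8 passed, while in 6 of the 8 the groups did not overlap, against 52% of all genes. With both Ctrl CLT libraries, *Tfrc* had the largest difference of the 8, with a mean 6.28-fold higher in CLT (2.39 on the log2 scale, SE 0.52, adjusted p = 0.31, limma, and 0.0048 to 1 over 15 alternatives), followed by *Slc40a1* at 3.25-fold and *Fth1* at 2.54-fold. Without Ctrl CLT 1, *Tfrc* (log2 fold change 3.1) and *Fth1* (1.70) passed, and without Ctrl CLT 2, *Tfrc* (1.68), *Fth1* (0.87), *Slc40a1* (2.03), *Heph* (-1.12), *Ireb2* (-0.57) and *Nfe2l2* (0.24) did so. The order of the 8 was not stable, as *Slc40a1* was only at 0.93 and *Heph* at -0.27 without Ctrl CLT 1, and *Slc40a1* was above *Tfrc* without Ctrl CLT 2. *Nfe2l2* passed there by a narrow margin, with an adjusted p by limma that rounds to 0.05, the lowest of its 15 alternatives, which reached 1. The whole test called 468 genes without Ctrl CLT 1 and 7537 without Ctrl CLT 2.

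In cKO, 28.9% of all genes rose and 45.1% fell from CLH to CLT, and in 86.7% the groups did not overlap. The median log2 fold change over all genes was -0.18, which median-of-ratios scaling moved to 0.02, and calls that were higher made up 39% of all calls in the first case and 51.9% in the second. In Ctrl the same scaling moved the median from -0.13 to 0.01. Against this background 2 of the 8 genes rose and 5 fell. *Slc40a1* rose 17.5-fold (log2 fold change 3.93, SE 0.10, adjusted p = 6.6e-09, limma) and *Tfrc* 3.45-fold (log2 fold change 1.72, SE 0.16, adjusted p = 1.7e-05, limma). Both were far above the median of all genes.

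The decreases from CLH to CLT in cKO were smaller. *Fth1* fell by 1.005 (SE 0.11, adjusted p = 4.4e-05) and *Heph* by 0.99 (SE 0.10, adjusted p = 2.2e-05) on the log2 scale by limma. *Ireb2* fell by 0.68 (adjusted p = 0.0013), *Aco1* by 0.61 (adjusted p = 0.00023) and *Nfe2l2* by 0.34 (adjusted p = 0.0058), again by limma. The call of *Nfe2l2* was lost with median-of-ratios scaling (-0.13, adjusted p = 0.2, limma) and without cKO CLT 2 (-0.30, adjusted p = 0.057, limma), within a range of 0.00064 to 0.2 over 15 alternatives. That of *Ireb2* was lost with all 8 libraries in 1 fit (adjusted p = 0.11, limma) and without cKO CLT 2 (-0.56, adjusted p = 0.051, limma), within 8.8e-06 to 0.11. *Slc11a2*, at -0.06 (SE 0.09, adjusted p = 0.59, limma), took a positive sign under median-of-ratios scaling (0.14) and quantile normalization (0.05). The cKO effects and the region effects share libraries, so their values are not independent of each other.

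A wider list of 69 iron genes, arranged by role and containing the 8, was measured in the same way, and 65 of its genes were tested. The other 4, *Lrp2*, *Ftmt*, *Hamp* and *Tmprss6*, had at most 26 reads in any library. In CLT, 0 of the 65 rose and 2 fell by limma, with a median log2 fold change of -0.21 against -0.01 over all 14148 genes. Without Ctrl CLT 1, 14 rose and 30 fell, with a median of -0.28, while of all 14148 genes 4445 rose and 5393 fell, with a median of -0.08. Without Ctrl CLT 2, 11 rose and 20 fell, with a median of -0.14, against 4121 and 3248 of all genes and a median of 0.07. These alternatives for the list were chosen after seeing the data. In CLH 0 of the 65 passed and the median was 0.01. The interaction was positive and past the threshold in 4 and negative in 11 of the 65, against 1139 and 1355 of all genes tested.

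Both genes that fell in CLT belong to uptake. *Trf*, which encodes transferrin itself, had an RPKM of 40.9 and 44.0 (Ctrl) and 35.1 and 40.4 (cKO) in CLH, and 44.4 and 52.7 (Ctrl) and 15.9 and 15.9 (cKO) in CLT. *Slc39a14*, a zinc transporter that also carries iron not bound to transferrin, was at 48.9 and 46.8 (Ctrl) and 52.0 and 45.2 (cKO) in CLH, and 42.7 and 51.8 (Ctrl) and 15.7 and 15.8 (cKO) in CLT. In each, 6 libraries lay close together and only cKO CLT lay apart, at 3.06-fold less *Trf* (log2 fold change -1.55, SE 0.16, adjusted p = 0.046, limma) and 3-fold less *Slc39a14* (-1.52, SE 0.16, adjusted p = 0.048, limma) than in Ctrl CLT. *Trf* was at -1.67 without Ctrl CLT 1 and -1.43 without Ctrl CLT 2, and *Slc39a14* at -1.66 and -1.38. Neither passed without cKO CLT 1 or without cKO CLT 2, where 0 of the 65 did, nor by voom, with eBayes without trend or with no filter on low values.

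Of the 15 uptake genes tested, 14 had a lower value in cKO CLT with both Ctrl libraries, against 7143 of all 14148 genes, and the exception was *Steap4*. Without Ctrl CLT 2, 10 of the 15 were lower and 5 higher, against 6374 lower and 7772 higher of all genes. This metalloreductase, which reduces iron before it is transported, was at 4.44 and 4.72 RPKM (Ctrl) and 3.88 and 4.19 (cKO) in CLH, and 5.81 and 2.92 (Ctrl) and 19.9 and 18.0 (cKO) in CLT. Its log2 fold change in CLT was 1.95 (SE 0.32, adjusted p = 0.064, limma), and it passed when Ctrl CLT 1 (2.34) or Ctrl CLT 2 (1.55) was left out. Of its family, *Steap2* was at 6.24 and 4.87 (Ctrl) and 1.35 and 1.38 (cKO) in CLT, *Steap1* at 31.1 and 7.11 against 4.40 and 4.31, and *Steap3* at 15.6 and 15.3 against 9.41 and 10.7. *Steap4* thus lay opposite to the other 3. The lactoferrin gene *Ltf*, whose product binds iron in secretions, was at 6.20 and 1.66 RPKM in Ctrl CLT, at 0.01 in cKO CLT 1 from 1 read and 0.07 in cKO CLT 2 from 5 reads.

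Of the 12 mitochondrial iron genes, 4 had a higher and 8 a lower value in cKO CLT, where 49.5% of all genes were higher. The median log2 fold change of these 12 genes was -0.09. It was 0.01 without Ctrl CLT 1 (6 higher, 6 lower) and -0.17 without Ctrl CLT 2 (4 higher, 8 lower). *Slc25a37*, which encodes mitoferrin, the importer of iron into mitochondria, had the largest difference, at 12.0 and 13.6 RPKM (Ctrl) and 12.5 and 12.3 (cKO) in CLH, and 19.0 and 8.44 (Ctrl) and 61.7 and 56.2 (cKO) in CLT. *Slc25a37* had the same order over the 4 CLT libraries as *Slc40a1* and *Hephl1*, and a value of 2.12 on the log2 scale (SE 0.41, adjusted p = 0.071, limma), which passed at 2.67 without Ctrl CLT 1 and 1.58 without Ctrl CLT 2. Erythroid cells also express it, and the 7 erythroid markers found, of 10 listed, summed to 198 and 232 RPKM (Ctrl) and 141 and 135 (cKO) in CLT. The most abundant of them was the globin gene *Hbb-bs* (named *Beta-s* in the table), at 187 and 225 (Ctrl) and 128 and 121 (cKO) in CLT. This globin gene made up most of the sum. The erythroid band 3 gene *Slc4a1* was at 3.04 and 0.20 (Ctrl) and 7.39 and 7.68 (cKO) in CLT. Like *Slc25a37*, it was higher in Ctrl CLT 1 than in Ctrl CLT 2 and higher again in both cKO CLT libraries. Which cells carry the *Slc25a37* RNA was not tested.

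The heme genes were spread around 0, with a median of -0.17 over 18 genes, 6 of them higher and 12 lower in cKO CLT. Of all genes, 49.5% were higher there. The heme median was -0.20 without Ctrl CLT 1 (6 higher, 12 lower) and -0.01 without Ctrl CLT 2 (8 higher, 10 lower). *Hmox1*, which encodes the heme oxygenase that frees iron from heme, was at 11.01 and 9.87 RPKM (Ctrl) and 13.2 and 14.0 (cKO) in CLH, and 27.8 and 22.8 (Ctrl) and 40.0 and 42.2 (cKO) in CLT. *Hmox1* was higher in cKO than in Ctrl in both regions without overlap, but passed in neither (adjusted p = 0.085 in CLT and 0.69 in CLH, limma), except in CLT at 0.82 without Ctrl CLT 1 and 0.55 without Ctrl CLT 2. *Ppox*, an enzyme of heme synthesis, was at 30.6 and 36.9 (Ctrl) and 16.2 and 17.3 (cKO) in CLT, and *Abcg2*, a porphyrin exporter, at 8.99 and 18.9 against 4.62 and 4.09. Among the systemic regulators, *Hfe* was at 8.46 and 9.83 (Ctrl) and 4.29 and 4.66 (cKO) in CLT, and *Hfe2*, the hemojuvelin gene that skeletal muscle expresses, was at 2.98 and 0.80 against 8.15 and 7.80. *Hfe2* was higher in Ctrl CLT 1 than in Ctrl CLT 2 and higher again in both cKO CLT libraries. The muscle markers had this order, but so did the hair and melanocyte markers and 26.7% of all genes tested.

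**Figure D3:**
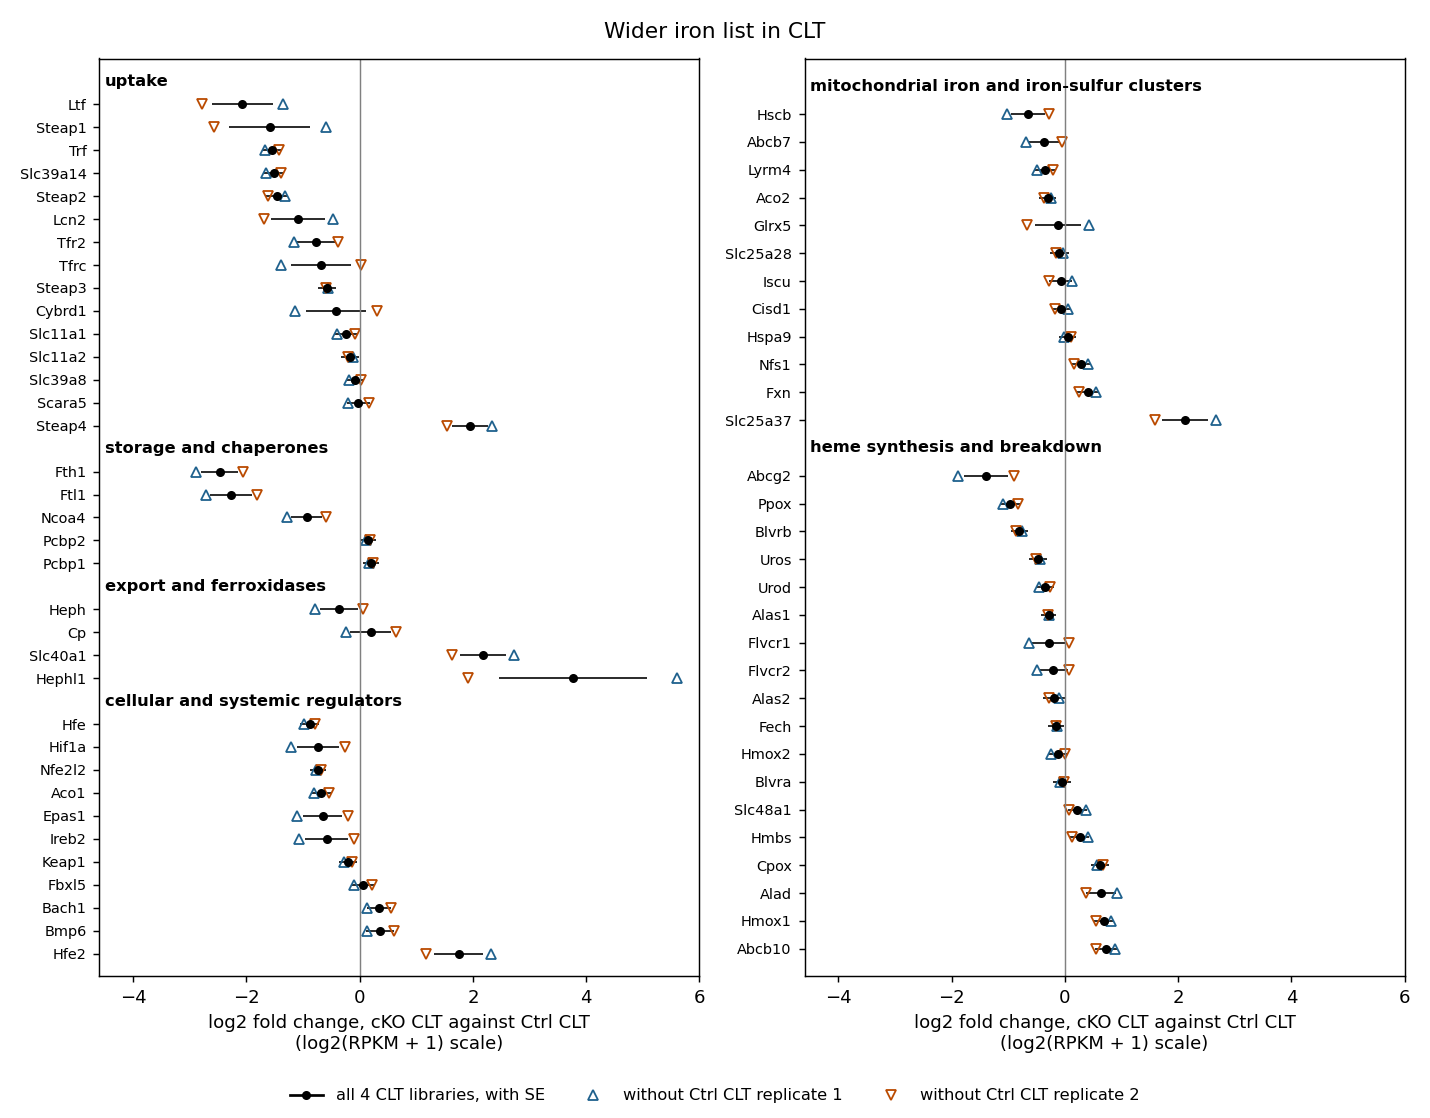
Log2 fold change between cKO CLT and Ctrl CLT (log2(RPKM + 1) scale) of the 65 tested genes of the wider iron list, by role, with SE bars for all 4 libraries and open triangles for the values without Ctrl CLT 1 or Ctrl CLT 2. *Fth1* and *Ftl1* lie at -2.47 and -2.27, *Slc40a1* at 2.18 and *Hephl1* at 3.76, and the triangles of *Tfrc* and *Heph* fall on both sides of 0.

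Of the 12 genes in the list of *Nfe2l2* targets, which contains *Fth1* and *Ftl1*, 7 had a higher and 5 a lower value in cKO CLT, where 49.5% of all genes were higher, with a median log2 fold change of 0.46. *Nqo1*, the quinone reductase often used to read NRF2 activity, was at 10.4 and 28.6 RPKM (Ctrl) and 2.94 and 2.13 (cKO) in CLT. In contrast, *Gclc*, an enzyme of glutathione synthesis, was at 18.5 and 9.11 against 47.6 and 45.5, and *Txnrd1*, a thioredoxin reductase, at 31.2 and 29.2 against 57.6 and 55.2. None of the 12 passed in CLT with both Ctrl libraries, while 7 rose and 4 fell without Ctrl CLT 1, where 9838 of all 14148 genes passed. Without Ctrl CLT 2, 6 rose and 4 fell, with a median of 0.25, where 7369 of all genes passed. In the interaction, *Gclc* (1.75) and *Txnrd1* (0.88) passed upwards, and *Nqo1* (-2.43), *Fth1* (-2.29) and *Ftl1* (-2.46) passed downwards. Of all genes tested, 17.6% passed in the interaction.

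In CLH, where the groups differed little, the largest differences without overlap in the wider list were those of *Lcn2*, *Hmox1* and *Glrx5* upwards and of *Slc40a1*, *Fth1* and *Trf* downwards. *Lcn2*, which encodes a carrier of bacterial iron chelators, was at 12.8 and 10.5 RPKM (Ctrl) and 16.5 and 15.5 (cKO) in CLH (by limma 0.43 on the log2 scale, SE 0.11, adjusted p = 0.69). In CLT *Lcn2* lay the other way, with 9.10 and 3.35 for Ctrl against 1.76 and 2.54 for cKO. From CLH to CLT in Ctrl, the largest differences without overlap were those of *Tfrc*, *Steap1* and *Slc40a1* upwards and of *Ltf*, *Lcn2* and *Cp* downwards, and none of these passed.

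From CLH to CLT in cKO, 13 of the 65 rose and 35 fell, where 28.9% of all genes rose and 45.1% fell. The 5 largest increases were those of *Hephl1* (5.59), *Slc40a1* (3.93), *Hfe2* (3.02), *Slc25a37* (2.16) and *Steap4* (1.98), and the 5 largest decreases those of *Ltf* (-3.36), *Lcn2* (-2.45), *Slc39a14* (-1.56), *Abcg2* (-1.51) and *Hfe* (-1.32). The increases were thus those of the exporter, a ferroxidase, mitoferrin, a metalloreductase and hemojuvelin.

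Genes with levels similar to those of the iron handling genes over the 8 libraries were sought among 9593 genes with a mean RPKM of at least 5, by Pearson's r of log2(RPKM + 1), as a description without a test. *Fth1* was most like *Plekhb1* (r = 0.989) and *Mettl7a1* (0.987), and *Nfe2l2* like *Dkk2* (0.984) and *Plekhb1* (0.983), so *Plekhb1* stood near both. *Tfrc* was most like *Sh3d19* (0.994) and *Obfc2a* (0.987), and *Heph* like *Rbpms* (0.999) and *Aldh9a1* (0.999). *Ireb2* was most like *Zfyve16* (0.9975) and *Tmx3* (0.997), and *Aco1* like *4632411B12Rik* (0.992) and *Slc20a2* (0.9915). *Slc11a2*, the gene with the narrowest range, had the weakest likeness, to *Nipal3* (0.942) and *Gnrh1* (0.942). The 8 libraries fall into 4 groups of 2, and r was not separated into differences between groups and within Ctrl CLT.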

How the data were processed

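RNA-seq (TruSeq v2, paired-end reads) of 8 libraries was used, grouped by the sample labels. According to the submitters' processing notes and the study's methods, reads were checked with FastQC 0.72, trimmed with Trim Galore 0.4.3.1, aligned to mm10 with STAR 2.6.0b-1, counted with featureCounts 1.6.3 and compared with DESeq2 2.11.40.2. The authors deposited RPKM values of 23358 genes with gene lengths. The annotation and the strand setting are not given in the sources used here, so overlapping genes are uncertain. RPKM times length was a whole multiple of 1 step per library for 100% of values (within 0.05 of a read), so read numbers could be recovered. Floors of 3 reads cover counting error only.

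Because RPKM are not counts, log2(RPKM + 1) was tested with limma 3.58.1 (lmFit, eBayes with trend) in R 4.3.3, on the 14148 genes that reached 1 RPKM in 2 or more libraries, with Benjamini-Hochberg adjustment. Each comparison was fitted within its 4 libraries and the interaction over all 8. An exact permutation test of 2 against 2 could not pass the threshold. Scripts were tested on simulated data. Alternatives were pseudocounts of 0.1 and 0.5, 2 scalings, 2 filters, a replicate block, a joint fit of all 8 libraries, eBayes without trend, robust eBayes, voom on recovered reads and each library left out. Named genes were the 8, *Med1*, the wider list's genes past the threshold (up to 5 per direction) or otherwise its 3 largest without overlap, marker genes, and the 2 most alike genes. Further genes were picked for naming once their values had been seen. The members and lists were chosen with earlier results of these data known. The symbols *Flvcr1*, *Flvcr2*, *Adgre1* and *Hbb-bs* were found under older names, and *Hbb-bt*, *Ahsp* and *Epb42* were not analysed here. The study's ChIP-seq and microarray data were not analysed here.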

Additional observations from a re-analysis of the deposited data

Results flagged for a closer look

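The cKO effect differed between CLT and CLH in 10 of 24 genes named by rule, by limma's interaction over all 8 libraries, which called 17.6% of all genes. The 24 were named for being members, for *Med1* or for large differences, and the 4 calls among the iron handling genes were lost without any 1 of the 6 libraries outside Ctrl CLT. Of the 8 iron handling genes these were *Fth1* (-2.29, SE 0.36), *Slc40a1* (2.44, SE 0.48), *Nfe2l2* (-0.63, SE 0.12) and *Aco1* (-0.71, SE 0.16). Of the wider list they were *Ftl1* (-2.46, SE 0.41), *Trf* (-1.38, SE 0.17), *Slc39a14* (-1.54, SE 0.17) and *Hfe* (-1.06, SE 0.20), each lower in CLT relative to CLH, and *Slc25a37* (2.16, SE 0.46) and *Steap4* (2.09, SE 0.36), each higher. Their adjusted p-values by limma ran from 0.0065 for *Slc39a14* to 0.036 for *Aco1*.

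*Med1* and *Lcn2* were flagged because their groups lay apart in opposite directions in the 2 regions. *Med1* was higher in cKO CLT and lower in cKO CLH, a difference of 0.64 (SE 0.34, adjusted p = 0.21, limma). *Lcn2* was lower in cKO CLT and higher in cKO CLH, a difference of -1.52 (SE 0.54, adjusted p = 0.095, limma). Neither difference passed the test.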

How the results depend on the processing

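Of 624 alternative values of the 8 iron handling genes over the 5 comparisons, 548 kept direction and side of the threshold, 31 newly passed it, 29 no longer passed and 16 changed sign, all 16 among values that had not passed. The counts of genes called moved more. In CLT the 248 calls became 3 with no filter on low values, 6183 with all 8 libraries in 1 fit, 0 by voom on recovered reads, and 11 to 9838 without 1 library. In CLH the 0 calls became 4 with robust eBayes and were 0 without any 1 library. The 2494 interaction calls became 198 to 8932 without 1 library. In Ctrl, the 1 call between regions became 2 with log2(RPKM + 0.1), log2(RPKM + 0.5), quantile normalization and a mean RPKM of at least 1, 837 with all 8 libraries, 0 with no filter or by voom, and 0 to 7537 without 1 library. In cKO the 10468 calls were 8402 to 9373 without 1 library. The cause of these moves was not tested, beyond the fewer samples or other genes of each alternative.

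The mice came from 2 litters, but the labels do not say that a replicate number marks a litter, so the numbers were not taken as pairs. With the replicate block, calls numbered 1744 in CLT, 0 in CLH, 1448 for the interaction, 5 between regions in Ctrl and 11441 in cKO. Of the 8 genes, *Fth1* and *Slc40a1* then passed in CLT (adjusted p = 0.024 each, limma), and *Aco1* did not pass in the interaction (adjusted p = 0.065, limma). Replicate differences of the 2 groups compared correlated at -0.192, 0.0656, 0.195 and 0.307 across genes in CLT, in CLH, in Ctrl and in cKO.

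The sign changed for *Tfrc* and *Heph* in CLT (0.02 and 0.06) and in the interaction (0.04 and 0.12) without Ctrl CLT 2, against -1.40 and -0.79 in CLT and -1.38 and -0.72 in the interaction without Ctrl CLT 1. In CLH it changed for *Ireb2* under quantile normalization (0.00), by voom (0.00), without Ctrl CLH 1 (-0.07) and without cKO CLH 1 (-0.13; 0.15 without cKO CLH 2), for *Slc11a2* (-0.02) and *Aco1* (-0.03; 0.09 without Ctrl CLH 1) without Ctrl CLH 2, and for *Tfrc* (0.22) without cKO CLH 2, against -0.25 without cKO CLH 1. Between regions it changed in Ctrl for *Ireb2* with median-of-ratios scaling (0.08) and without Ctrl CLT 1 (0.39; -0.57 without Ctrl CLT 2) and for *Aco1* without Ctrl CLT 2 (-0.03; 0.23 without Ctrl CLT 1), and in cKO for *Slc11a2* with median-of-ratios scaling (0.14) and quantile normalization (0.05). The 8 genes rested on 639 to 38628 reads per library.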
